A study of Mus musculus with 4 samples.

Results

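Pre-B cells taken 1 month after bone marrow transplantation were compared with pre-B cells taken at steady state. All 4 of the 4 RNA-seq libraries entered the comparison, 2 on each side, and they were assigned by their labels. The steady-state side, title code 0901, held wild-type (WT) pre-B cells and pre-B cells from marrow transgenic (Tg) for STAP-2. The transplanted side, title code 0826, held wild-type pre-B cells and pre-B cells from marrow labelled STAP-2 knockout (KO), both 1 month after transplantation. The strain was C57BL/6J for all 4 libraries, and each group was 1 library. STAP-2, encoded by Stap2, is an adaptor protein that binds signalling kinases and STAT factors, and the study asked which pathways it regulates in stressed marrow. The labels do not give the promoter of the transgene, the number of animals pooled, their age or sex, the conditioning of the recipients, or whether donor and recipient cells were separated. Transplantation, genotype mix and title code changed together, so they cannot be told apart on the pooled comparison. The wild-type libraries differ in transplantation and title code but not in the labelled genotype.

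Pre-B cells have assembled an immunoglobulin heavy chain, which pairs with the surrogate light chain proteins VPREB and IGLL1 to form the pre-B cell receptor. Signals from this receptor and from the interleukin-7 receptor set the balance between division and light chain rearrangement by RAG1 and RAG2. After transplantation into a conditioned host the marrow is rebuilt from donor progenitors, a setting used to study lymphopoiesis under demand.

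Each library gave a value for 23284 gene symbols in FPKM, a fragment count normalised to transcript length and library size, and 11053 genes stood at 1 FPKM or more in at least 1 library. Depth, estimated from the steps that single reads leave in low values, was 7320000 to 8800000 reads, and 10511 to 10648 genes per library reached 1 FPKM. All 14 of 14 pre-B markers, among them Pax5, Ebf1 and Il7r, were at 5 FPKM or more in every library, and 13 of them overlapped between the sides. Rag2, which encodes a recombinase subunit, was the exception, at 43.1 FPKM for wild type and 39.6 in transgenic at steady state against 28.4 for wild type and 35.4 for the labelled knockout after transplantation. Stap2 itself stood at 0.212, 0.536, 0 and 0.179 FPKM in the same order, or 2, 5, 0 and 2 estimated reads, so its level checks neither the transgenic nor the knockout label.

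A gene was called apart when both of its values on one side exceeded both on the other. Differences are given on the log2(FPKM + 1) scale as the mean of the transplanted libraries minus the mean of the steady-state libraries, which understates the difference of low genes. With 2 libraries against 2, an exact two-sided permutation test cannot give a p below 0.333, so no test was run. Since each group is 1 library, no difference has a replicate check. Across all genes compared, 1646 (14.9%) were apart and higher in the transplanted libraries and 2071 (18.7%) were apart and lower. With 1 library left out fewer values have to separate, so more of all genes are apart. Counts with 1 library left out, given for the lists below, are not to be set against these shares. Rescaling the libraries moved the share of higher genes among those apart from 44.3% to between 50.6% and 50.8%, so the excess of lower genes depends on the scaling. The median absolute difference was 0.11 over all genes and 0.20 over the genes apart. Only 39 genes (0.353%) were apart with a level 2-fold or more above steady state, and 35 (0.317%) with one as far below. Of these 74 genes, 24 were small RNA, histone, numbered or clone-named genes, whose FPKM values are uncertain.

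Differences of 2-fold were about as frequent within a side as across. From steady-state to transplanted wild type, 181 genes (1.64%) were 2-fold or more higher and 68 (0.615%) lower by the same margin. From the steady-state transgenic library to the transplanted library labelled knockout, the counts were 53 (0.48%) and 132 (1.19%). Within the steady-state side, 132 genes (1.19%) lay 2-fold or more above wild type in the transgenic library and 74 (0.67%) as far below. Within the transplanted side, 72 (0.651%) were higher and 127 (1.15%) lower for the labelled knockout than in wild type. The wild-type pair and the pair of transgenic and labelled knockout share no library. Across the 11053 genes their differences had a Pearson r of -0.027 and a Spearman rho of 0.089, and 53.5% of genes had the same sign in both. Genes are not independent replicates, so these values describe the libraries only. Among 8058 genes at 5 FPKM or more in all 4 libraries, r was 0.087 and 54.0% had the same sign. The sign was thus shared little more often than it differed.

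At least 2-fold higher in both pairs were 11 genes, 6.08% of the wild-type list and 20.8% of the other. Of these, Wnt10a, Bhlhe40, Ccnd2, Rgs13, Vpreb2 and Folr4 are protein-coding genes with an established symbol. At least 2-fold lower in both were 17 genes, 25% of the wild-type list and 12.9% of the other. They included Igj, Slpi, Fam46c, Cxcl12, Fkbp11, Tnfrsf17, Tigit, Mapk12 and Xist. Opposite 2-fold differences were found in 16 genes that were higher in the wild-type pair and lower in the other, and in 2 genes with the reverse pattern.

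**Figure D1:**
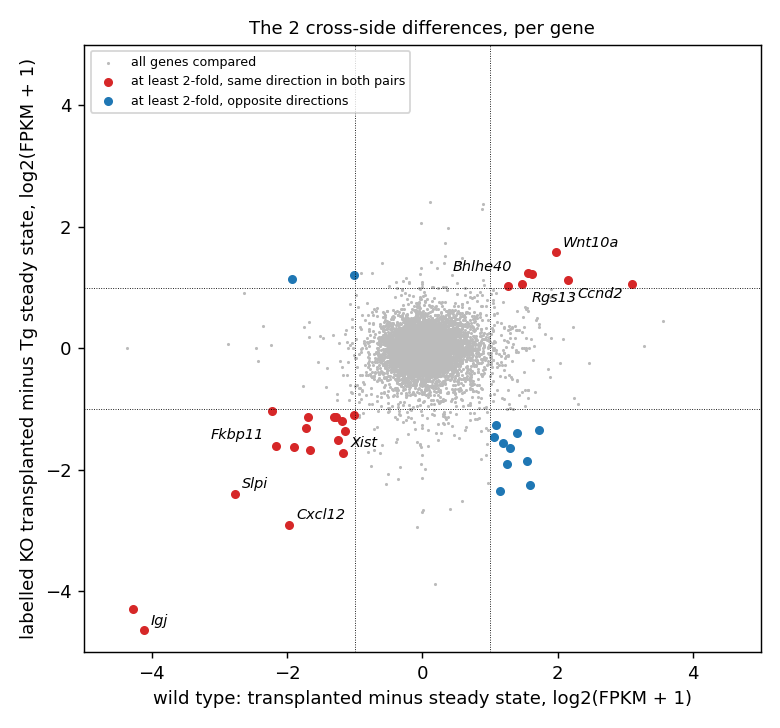
Each point is 1 of the genes compared; the horizontal axis is transplanted minus steady-state wild type and the vertical axis the labelled knockout minus the transgenic library, both as differences of log2(FPKM + 1), with dotted lines at 2-fold. Red points mark genes at least 2-fold different in the same direction in both pairs and blue points those in opposite directions. Igj lies farthest to the lower left among the named genes, and 39 genes lie outside the axes. Over all genes compared, with those outside the axes included, r was -0.027. Among genes at 5 FPKM or more in all 4 libraries it was 0.087.

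The lower genes were led by products of antibody-secreting cells. Igj (chromosome 5, 88519809 to 88527891, minus strand, GRCm38), which encodes the J chain that joins IgM and IgA into polymers, stood at 306 FPKM for wild type and 204 in transgenic at steady state. After transplantation it stood at 16.6 for wild type and 7.23 for the labelled knockout. No other gene named by the rule had as wide a gap between the sides. The level was 18.4-fold lower in the wild-type pair (95% exact Clopper-Pearson interval on estimated reads, counting error only, 16.3 to 20.9) and 28.2-fold lower in the other pair (23.8 to 33.8). Between any steady-state and any transplanted library the fold ranged from 12.3 to 42.3.

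Further plasma cell genes followed at far lower levels. Fkbp11, an endoplasmic reticulum peptidyl-prolyl isomerase of secretory cells, was at 5.68 FPKM for wild type and 4.69 in transgenic at steady state, and at 0.488 for wild type and 0.872 in the labelled knockout after transplantation. Tnfrsf17, which encodes the survival receptor BCMA, was at 3.61 and 1.59 against 0.427 and 0.191 in the same order, from 16, 7, 2 and 1 estimated reads. Sdc1, the plasma cell surface proteoglycan CD138, was at 43.5 and 31.8 against 19.8 and 27.2. For these 3 genes, too, both transplanted libraries lay below both steady-state libraries. Fam46c, which encodes a poly(A) polymerase abundant in plasma cells and was not on the list, was at 5.92 and 5.59 FPKM against 0.849 and 1.14. It was 6.97-fold lower (4.91 to 10.2) in the wild-type pair and 4.91-fold lower (3.66 to 6.78) in the other.

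Of the 13 measured plasma cell genes, 7 were apart and lower and 0 were apart and higher, against the 18.7% and 14.9% of all genes. The median difference of the list was -0.16, against -0.01 over all genes. The 7 were Igj, Fkbp11, Tnfrsf17, Sdc1, Edem2, 2010001M09Rik and Xbp1. Edem2 and Xbp1, genes of protein quality control and of the secretory programme, differed little: Xbp1 was at 63.1 and 60.7 FPKM at steady state and 56.8 and 53.8 after transplantation. The genes of 2 defining transcription factors overlapped between the sides. Prdm1, which encodes BLIMP-1, was at 4.23 and 3.01 FPKM at steady state and 3.24 and 2.47 after transplantation, and Irf4, also high in pre-B cells, was at 259 and 173 against 181 and 220. Summed over the list, the level was 1150 and 929 FPKM at steady state and 719 and 718 after transplantation, with no member listed at 0. Igj alone made up most of this fall in both pairs. Without the transgenic library 11 members were lower, and at 1 FPKM or more in all libraries 5 of 11, since Fkbp11 and Tnfrsf17 entered through the steady-state side. In a bulk sample, fewer cells of a type and less RNA per cell cannot be told apart.

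**Figure D2:**
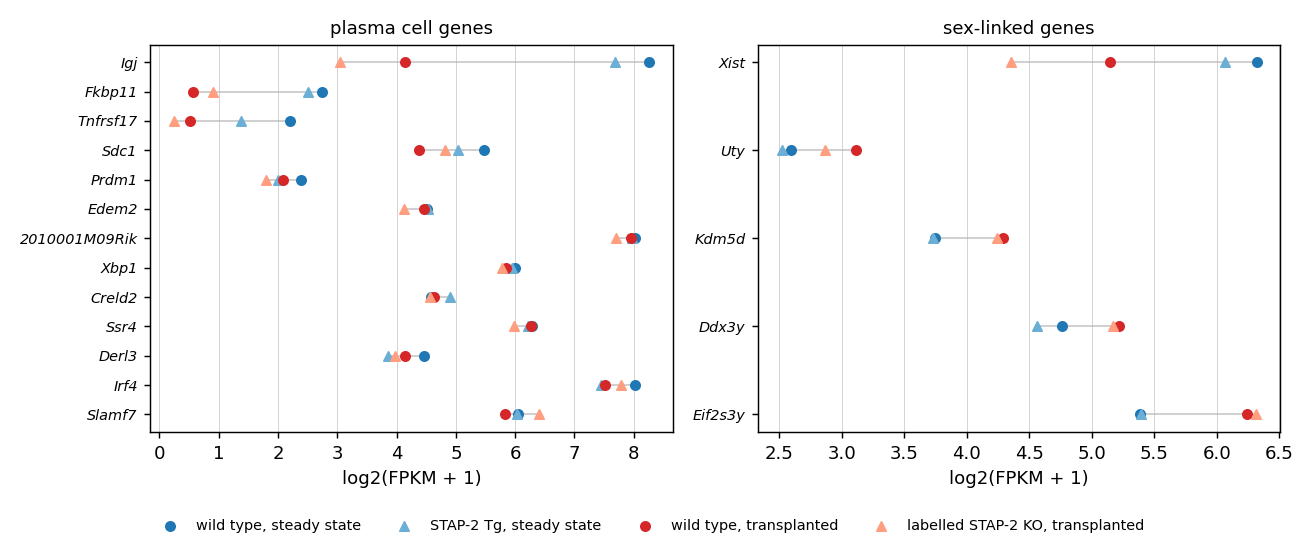
Left, the 13 plasma cell genes, and right, 5 sex-linked genes, each with its log2(FPKM + 1) on the horizontal axis in the 4 libraries; blue symbols are steady state, red symbols transplanted, circles wild type and triangles the transgenic or labelled knockout library, and grey lines join the lowest and highest library. Igj, Fkbp11 and Tnfrsf17 separate most on the left, and on the right Xist is lower and the 4 Y-linked genes are higher in both transplanted libraries.

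Slpi, which encodes a secreted inhibitor of serine proteases, was at 36.1 FPKM for wild type and 16.9 in transgenic at steady state and at 4.44 and 2.41 after transplantation. It was 8.14-fold lower (5.23 to 13.1) in the wild-type pair and 7.0-fold lower (3.92 to 13.3) in the other. Cxcl12 (chromosome 6, 117168535 to 117181367, plus strand, GRCm38) encodes the chemokine with which marrow stroma retains B cell precursors. Its level was 4.26 and 7.65 FPKM at steady state and 0.348 and 0.155 after transplantation, or 169, 303, 15 and 7 estimated reads. Cxcl12 was 12.2-fold lower (7.11 to 22) in the wild-type pair and 49.3-fold lower (24.9 to 131) in the other. Of the 7 measured stromal and endothelial genes 3 (42.9%) were apart and lower, against 18.7% of all genes. These were Cxcl12, the endothelial cadherin gene Cdh5 and Adipoq, and the other 4 overlapped between the sides. The list's median was -0.01. At 1 FPKM or more in all libraries 1 of 3 was lower, since Cxcl12 and Cdh5 entered through the steady-state side. Pecam1, at 90.7 and 84.7 FPKM against 88.9 and 85.4, made up most of the list's summed level of 106 and 111 FPKM against 104 and 102. Of its 18 listed genes, 3, 1, 2 and 4 were at 0 in wild type, transgenic, transplanted wild type and labelled knockout. Without steady-state wild type 5 members were lower.

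Among genes of early progenitors and other lymphocytes, Hoxb4 and Tigit were chosen after their values were seen. Hoxb4, a homeobox gene of haematopoietic progenitors, was at 1.62 and 2.97 FPKM at steady state against 0.601 and 0.586 after transplantation. Meis1, which encodes a partner of HOX proteins, was at 1.30 and 1.03 against 0.120 and 0.220. It was the 1 of 5 measured stem and progenitor genes (20%, against 18.7% of all genes) that was apart and lower. Meis1 entered only through the steady-state side, and at 1 FPKM or more in all libraries 0 of 4 were apart. Tigit, an inhibitory receptor gene of T and NK cells, was at 2.71 and 2.73 against 0.683 and 0.457, from 14, 14, 4 and 3 estimated reads. Of the 9 measured T and NK genes, a list without Tigit, 1 (11.1%) was apart and higher and 1 lower, against 14.9% and 18.7% of all genes. Hoxb4, Meis1 and Tigit are low in these libraries and reached 1 FPKM only at steady state. That all 3 were lower in both transplanted libraries follows from how they were chosen.

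The other genes among the 15 with the widest gap in the lower direction differed less. BC064078, a gene of undescribed function, was at 25 and 28.3 FPKM at steady state and 12.6 and 12.7 after transplantation. Slc36a4, an amino acid transporter gene, was at 20.1 and 18.9 against 10.4 and 8.59. Both were close to 2-fold lower with little spread within a side. The remaining 9 beside Xist, namely Cnrip1, Fam105a, Ccl27a, Fhit, Nsg2, F5, H1f0, Egfl6 and Sh2d5 with differences from -0.84 to -0.50, had steady-state levels between 5.16 and 15.3 FPKM. H1f0, which encodes the linker histone H1.0 of resting cells, was at 13.3 and 14.5 against 5.82 and 9.23. Ccl27a and Fhit rested on 20 to 50 estimated reads per library.

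**Figure D3:**
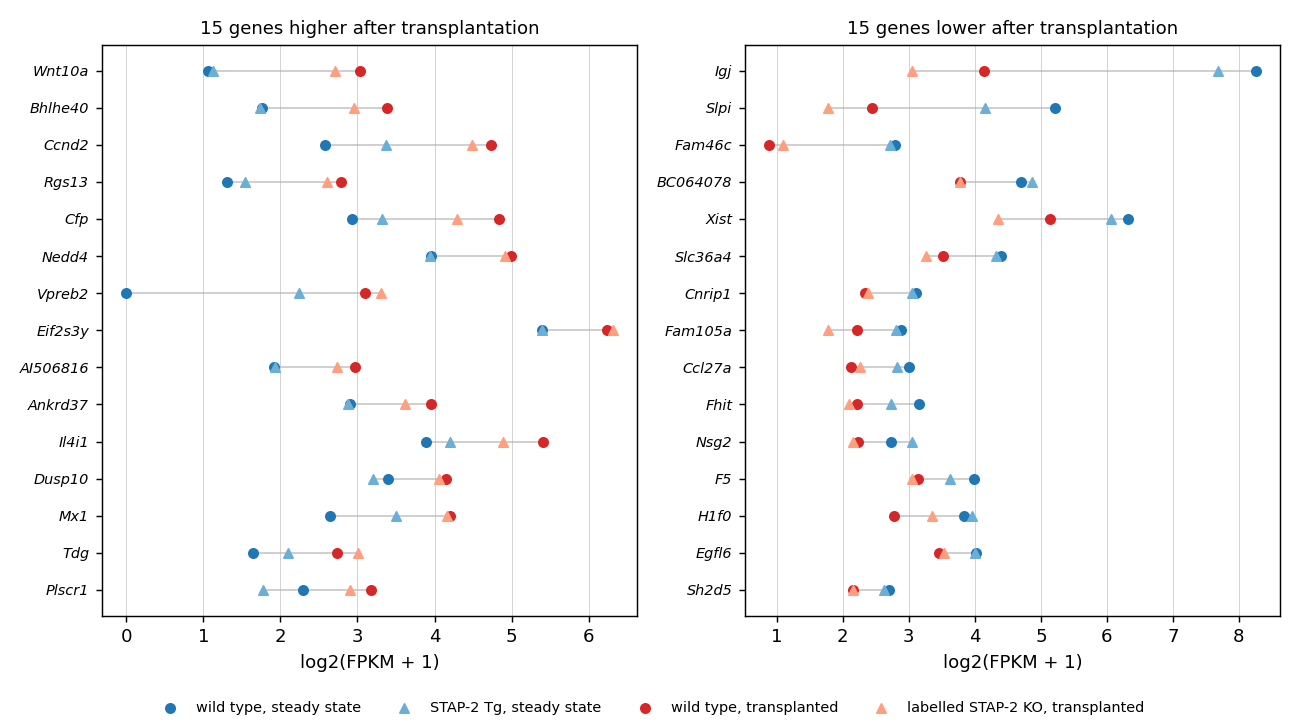
The 15 genes with the widest gap between the sides in each direction among genes at 5 FPKM or more in both libraries of the higher side, with log2(FPKM + 1) on the horizontal axis and the 4 libraries as in the key; grey lines join the lowest and highest library. On the left both red symbols lie to the right of both blue symbols in every row, and on the right the reverse holds, as the choice of the genes fixes; Igj shows the widest gap and Vpreb2 a value of 0 in steady-state wild type.

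The higher genes were led by Wnt10a (chromosome 1, 74791516 to 74804179, plus strand, GRCm38), which encodes a secreted WNT ligand. It stood at 1.09 FPKM for wild type and 1.18 in transgenic at steady state and at 7.21 for wild type and 5.51 for the labelled knockout after transplantation. The ratio was 6.62 (4.0 to 11.5) in the wild-type pair and 4.69 (2.91 to 8.23) in the other. Within a side the values lay close together. Bhlhe40, a transcriptional repressor induced by many stimuli, was at 2.39 and 2.32 FPKM against 9.45 and 6.73, with ratios of 3.95 (2.87 to 5.43) and 2.90 (2.10 to 4.07). Rgs13, which encodes a regulator of G protein signalling in B cells, was at 1.48 and 1.92 against 5.90 and 5.09.

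Ccnd2 (chromosome 6, 127125162 to 127152193, minus strand, GRCm38) encodes cyclin D2, a driver of G1 progression and a target of STAT5 and MYC in B cell precursors. It was at 4.95 FPKM for wild type and 9.29 in transgenic at steady state and at 25.5 for wild type and 21.4 in the labelled knockout after transplantation. The ratio was 5.16 (4.45 to 5.96) in the wild-type pair and 2.31 (2.06 to 2.59) in the other. Myc was at 10.8 and 12.9 FPKM against 38.0 and 17.2, so that its ratio was 3.53 (2.97 to 4.21) between the wild types and 1.34 (1.12 to 1.60) in the other pair. Of the 19 measured genes of the interleukin-7 receptor, JAK and STAT5 list, 5 were apart and higher and 2 apart and lower. For comparison, 14.9% of all genes were apart and higher and 18.7% apart and lower. The 5 higher genes were Ccnd2, Myc, Socs2, Pim3 and Crlf2, and the 2 lower were Socs1, at 43.4 and 47.6 against 36.5 and 27.0 FPKM, and Stat5a. Leaving out 1 library gave 6 to 11 higher members, most without the labelled knockout, and 4 to 6 lower, most without transplanted wild type. The list's median was 0.35 in the wild-type pair and -0.05 in the other.

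The proliferation genes did not separate by side. Of 27 measured mitosis genes 0 were apart in either direction, and of 28 DNA replication genes 2 were apart and higher and 1 lower. Over all genes the shares were 14.9% higher and 18.7% lower. Mki67, the proliferation antigen gene, was at 93.8 FPKM for wild type and 120 in transgenic at steady state, and at 72.7 for wild type and 143 in the labelled knockout after transplantation. The transplanted libraries thus held both the lowest and the highest value. The median difference of the mitosis list was -0.25 in the wild-type pair and 0.30 in the other. Leaving out transplanted wild type put 26 of the replication genes and all 27 mitosis genes above steady state, and leaving out the labelled knockout put 12 and all 27 below. Without transgenic 16 replication genes were higher.

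Nedd4, which encodes a HECT ubiquitin ligase, was at 14.4 FPKM in both steady-state libraries and at 30.8 and 29.0 after transplantation, with ratios of 2.13 (1.93 to 2.36) and 2.02 (1.83 to 2.23). Cfp, the properdin gene of the alternative complement pathway, was at 6.63 and 8.99 FPKM against 27.6 and 18.6. Il4i1, which encodes an amino acid oxidase of B and myeloid cells, was at 13.8 and 17.4 against 41.5 and 28.5. These 3 genes were expressed well above the detection limit on both sides. Dusp10, Tdg, Plscr1, Ankrd37 and AI506816 complete the 15 together with Eif2s3y and Mx1, with differences from 0.80 to 1.11, and Vpreb2 is described below. Tdg encodes a thymine DNA glycosylase, and its level was 2.14 and 3.29 FPKM against 5.66 and 7.05.

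Of the surrogate light chain and early B genes, Dntt, Enpep and Vpreb2 were higher on the transplanted side, while 10 of 15 overlapped. Steady-state wild type alone was low for several genes of this list. Dntt, which encodes terminal deoxynucleotidyl transferase and adds untemplated nucleotides to heavy chain joints, was at 2.12 FPKM for wild type and 7.53 in transgenic at steady state and at 12.1 and 15.1 after transplantation. The ratio was 5.68 (3.81 to 8.59) in the wild-type pair and 2.0 (1.60 to 2.55) in the other. Enpep, the BP-1 antigen gene, was at 3.0 and 6.15 against 7.38 and 9.64 FPKM. Vpreb2 was listed at 0 and at 3.74 at steady state and at 7.59 and 8.86 after transplantation, from 0, 15, 32 and 42 estimated reads. Vpreb2 is nearly identical to Vpreb1, so the division of reads between them is uncertain. Vpreb1 was at 7.31 FPKM in steady-state wild type, 34.4 in transgenic, 30.2 in transplanted wild type and 38.6 in the labelled knockout, and Igll1 was at 14.6, 39.9, 36.4 and 49.7. For both genes only steady-state wild type was low, and the transgenic library lay among the transplanted ones. Of the 15 measured genes of the surrogate light chain and early B list 3 (20%) were apart and higher and 2 (13.3%), Bst1 and Rag2, apart and lower. Over all genes the shares were 14.9% and 18.7%. The list's median was 0.02. Leaving out 1 library gave 4 to 8 higher members, most without transplanted wild type, and 3 to 7 lower, most without the labelled knockout.

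Genes of the immature and mature B cell were higher mainly in transplanted wild type. Ms4a1, which encodes CD20, was at 156 and 171 FPKM at steady state and at 412 for wild type and 263 in the labelled knockout after transplantation. Its ratio was 2.64 (2.54 to 2.75) in the wild-type pair and 1.54 (1.47 to 1.60) in the other. Faim3, the IgM Fc receptor gene, was at 195 and 224 against 401 and 238 FPKM, and Tnfrsf13c, which encodes the BAFF receptor, at 113 and 119 against 153 and 161. Of 22 measured genes, 6 (27.3%) were apart and higher and 1 (4.55%), Cd38, apart and lower, against 14.9% and 18.7% of all genes. The list's median was 0.68 in the wild-type pair and -0.09 in the other. Without the labelled knockout 19 were higher and without steady-state transgenic 14, while without transplanted wild type 7 were higher and 6 lower.

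Of 27 measured genes of pre-B and B cell receptor signalling 5 (18.5%) were apart in each direction, and most of these differed little. The shares of all genes were near this, 14.9% higher and 18.7% lower. Ptpn6, which encodes the inhibitory phosphatase SHP-1, was at 179 and 177 FPKM at steady state and at 306 and 251 after transplantation, with ratios of 1.71 (1.63 to 1.79) and 1.42 (1.35 to 1.49). The kinase genes Btk and Lyn had differences of -0.10 each. Leaving out 1 library gave 5 to 16 higher members, most without the labelled knockout, and 7 to 14 lower, most without transplanted wild type. Of 23 B lineage transcription factors 8 (34.8%) were apart and higher and 0 lower, with a median of 0.06. Pou2f2, which encodes OCT-2, was at 39.1 and 35.2 FPKM against 53.4 and 44.1. Without steady-state wild type 17 of the 23 were higher, and without the transgenic library 13 were lower.

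Interferon-stimulated genes were mostly higher on the transplanted side, with the lowest values mostly in wild type at steady state. These genes are switched on when a complex that holds STAT2 and IRF9 binds GAAA repeats in their promoters after interferon signalling. Of 35 measured, 24 were apart and higher and 0 lower, or 68.6% against the 14.9% of all genes. Some members entered only through the transplanted side, and at 1 FPKM or more in all libraries 21 of 30 were higher. The median difference of the 35 was 0.59. Oas2, an antiviral oligoadenylate synthetase gene, was at 5.30 FPKM for wild type and 24.9 in transgenic at steady state and at 25.6 and 27.8 after transplantation. Its ratio was 4.83 (4.04 to 5.82) in the wild-type pair and 1.12 (1.01 to 1.24) in the other. Rtp4, an interferon-induced chaperone gene, was at 4.50 and 16 against 18.2 and 19. In both genes the transgenic library lay close to the transplanted ones.

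The transgenic library lay farther below the transplanted ones in a few members. Mx1, which encodes an antiviral dynamin-like GTPase, was at 5.26 and 10.3 FPKM at steady state and at 17.4 and 16.9 after transplantation, with a ratio of 1.64 (1.40 to 1.93) in the other pair. Isg15, the ubiquitin-like modifier gene, was at 5.23 and 10.8 against 13.2 and 19.1. Isg20, an exonuclease gene, was at 8.77 and 8.64 against 12.6 and 15.1, and so did not separate the steady-state libraries. Stat2 and Irf9, which encode factors of that complex, overlapped between the sides. The list's median was 0.90 in the wild-type pair and 0.13 in the other. Without steady-state wild type 24 members were higher and 6 lower with a median of 0.15, and without the transgenic library 34 were higher with a median of 0.96. Ifit3 has a close paralog, so its reads may be divided.

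**Figure D4:**
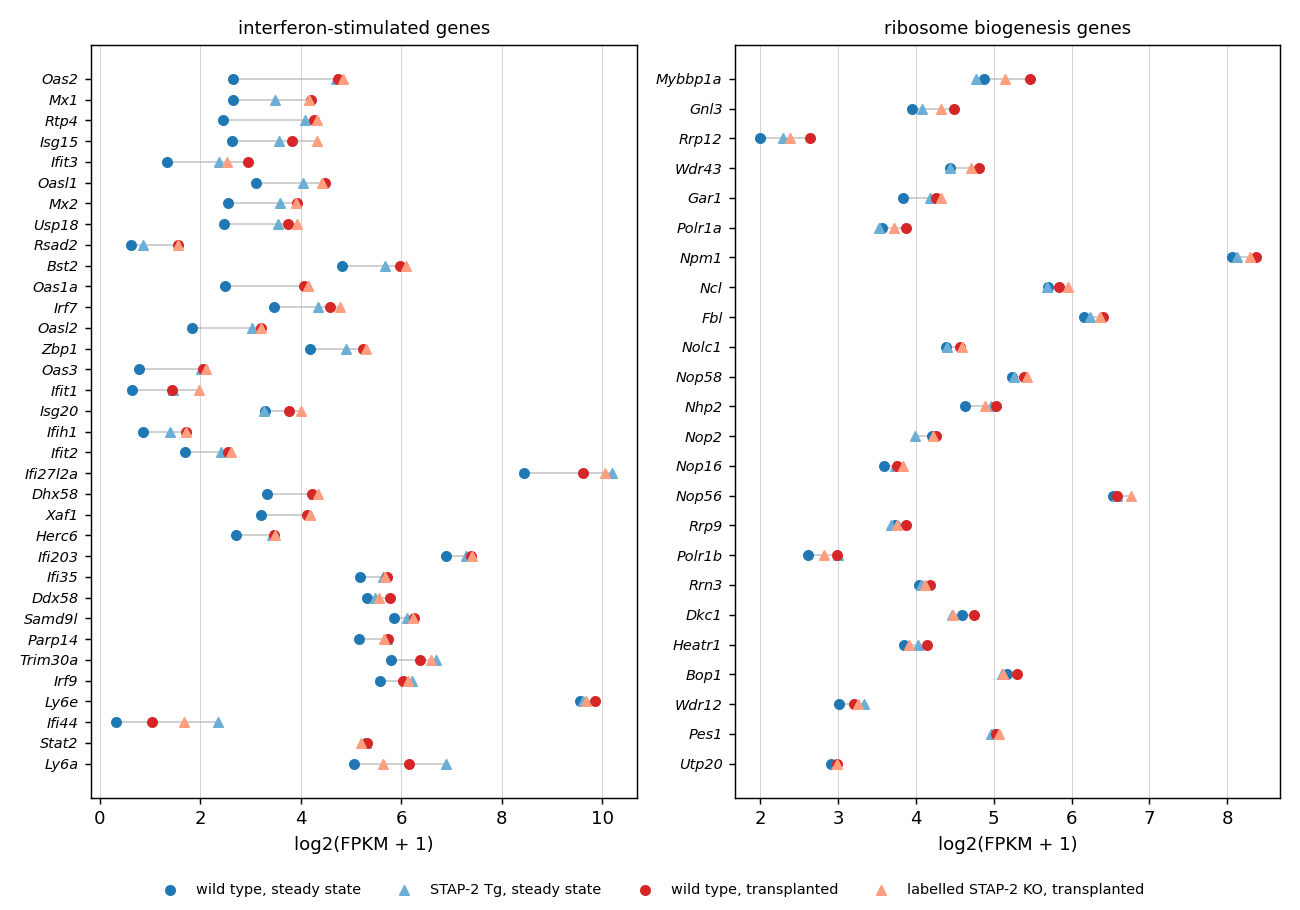
The interferon-stimulated genes (left, 34 of the 35 shown) and 24 ribosome biogenesis genes (right), with log2(FPKM + 1) on the horizontal axis in the 4 libraries as in the key, ordered by the difference between the sides; grey lines join the lowest and highest library. On the left the wild-type steady-state circle stands apart from the other 3 libraries in most rows, while on the right both steady-state symbols lie together to the left in most rows.

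Promoters of 3 interferon-stimulated genes are printed because their transcripts were higher in both transplanted libraries and each holds a GAAA repeat, GAAA followed after any 2 bases by GAAA, the core of the element this complex binds. Each sequence is a stretch of 160 bases from within the 250 bases before the start of the gene, from RefSeq on GRCm38.p6. It is written 5′ to 3′ on the gene's strand, and capitals mark each match on either strand. The Isg15 stretch runs up to the start, while those of Ifit3 and Rsad2 stop short of it. Isg15 lies at chr4:156200819-156200978 on the minus strand, Ifit3 at chr19:34583313-34583472 on the plus strand and Rsad2 at chr12:26456473-26456632 on the minus strand.
Isg15: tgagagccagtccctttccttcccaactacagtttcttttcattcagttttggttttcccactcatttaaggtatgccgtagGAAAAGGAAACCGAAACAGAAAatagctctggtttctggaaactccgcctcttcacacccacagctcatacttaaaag
Ifit3: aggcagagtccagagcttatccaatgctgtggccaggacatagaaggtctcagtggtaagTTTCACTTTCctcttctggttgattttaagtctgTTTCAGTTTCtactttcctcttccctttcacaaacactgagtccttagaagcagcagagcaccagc
Rsad2: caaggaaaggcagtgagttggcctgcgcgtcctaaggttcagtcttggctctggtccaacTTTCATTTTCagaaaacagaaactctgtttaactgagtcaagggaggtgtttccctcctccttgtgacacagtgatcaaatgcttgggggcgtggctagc
In Isg15 the 3 matches overlap and end 57 to 69 bases before the start. Those of Ifit3 end 147 and 113 bases before it, and that of Rsad2 111 bases. Ifit3, an inhibitor of viral RNA translation, has 2 matches on the opposite strand, and its level was 1.52 and 4.15 FPKM at steady state and 6.70 and 4.76 after transplantation. Rsad2, which encodes the antiviral enzyme viperin, has 1 match and stood at 0.534 and 0.807 against 1.95 and 1.93. It thus entered the comparison only through the transplanted side. Of 23 measured interferon-stimulated genes with a promoter in the table, 10 (43.5%) held the repeat within 250 bases, against 2.98% of 32851 promoters and 3.23% of the 8687 genes compared that had one. Among those apart and higher it was 6 of 16 and among those that overlapped 4 of 7. A match is a description of these letters only.

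Genes of antigen presentation by MHC class I, many of them also induced by interferon, gave 8 of 20 (40%) apart and higher and 0 lower. The shares of all genes were 14.9% and 18.7%, and the list's median was 0.20. Tap1, which encodes a peptide transporter subunit, was at 71.8 and 103 FPKM at steady state and 109 and 120 after transplantation. Nlrc5, the transactivator gene of class I, was at 23.2 and 35.1 against 36.1 and 39.0. For Tap1 and Nlrc5 the transgenic library lay between steady-state wild type and the transplanted libraries. In the 12 members that overlapped it lay above at least 1 transplanted library. B2m, for example, was at 1945 and 2744 FPKM against 2590 and 2586. The median was 0.44 in the wild-type pair and -0.04 in the other, and 19 members were higher without the transgenic library, 15 without the labelled knockout. Without steady-state wild type 8 were higher and 5 lower. Psmb8, Psmb9 and Psmb10 are counted in both this list and the proteasome list, and H2 genes are close paralogs.

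In ribosome biogenesis genes the steady-state libraries lay together, below the transplanted ones. Of 24 measured, 17 (70.8%) were apart and higher and 0 lower, against 14.9% and 18.7% of all genes. The median was 0.15 over both sides, 0.18 in the wild-type pair and 0.12 in the other. The differences were small. Mybbp1a, which encodes a nucleolar MYB-binding protein, was at 28.3 and 26.3 FPKM at steady state and at 43.1 and 34.4 after transplantation, with ratios of 1.52 (1.40 to 1.66) and 1.31 (1.20 to 1.43). Npm1, the nucleophosmin gene, was at 267 and 279 against 329 and 312. Gnl3, which encodes nucleostemin, was at 14.4 and 15.8 against 21.5 and 18.9. Wdr43, which encodes a nucleolar WD repeat protein, was at 20.7 in both steady-state libraries against 27.1 and 25.2. Leaving out any 1 library, which cannot lower the count here, gave 18 to 22 higher members, and rescaling to the same sum gave 15. The E-box CACGTG that MYC binds was found within 250 bases of the start in 2 of 20 promoters of the list, 10%, against 10.2% of the genes compared. Of the 81 ribosomal protein genes 2 (2.47%) were apart and higher and 5 (6.17%) lower, or 16 and 17 after rescaling to the same sum. Their medians were 0.12 and -0.12 in the pairs. With 1 library left out 4 to 44 were higher, most without transgenic, and 6 to 50 lower, most without steady-state wild type.

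Heat shock proteins and cochaperones gave 9 of 17 (52.9%) apart and higher and 1 (5.88%) lower, against 14.9% and 18.7% of all genes. The median was 0.19. Hsp90aa1, the stress-inducible HSP90 gene, was at 132 and 169 FPKM at steady state and at 232 and 186 after transplantation. Hspd1, which encodes the mitochondrial chaperonin, was at 51.1 and 53.5 against 71.4 and 65.7. Both showed their highest level in transplanted wild type. Dnajb4, an HSP40 gene, was the 1 lower member, at 9.14 and 8.80 against 6.53 and 4.72. Hspa1a and Hspa1b overlapped between the sides, Hspa1b at 8.39 and 19.2 FPKM against 45.2 and 9.73. In both pairs 12 members were higher. Leaving out 1 library gave 9 to 15 higher members, most without the transgenic library. The median was 0.44 in the wild-type pair and 0.06 in the other.

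Immediate early genes, which respond within minutes to handling and to receptor signals, gave 3 of 22 (13.6%) apart and higher and 1 (4.55%) lower. Over all genes the shares were 14.9% and 18.7%, so the higher count is near the general share. The 3 higher genes were Egr1, at 20.2 and 17.4 FPKM at steady state and 67.7 and 25 after transplantation, Egr2 and Egr3. Fos was at 307 and 192 against 334 and 102, and so was highest and lowest on the transplanted side. Without the labelled knockout 18 members were higher, and without transplanted wild type 15 were lower.

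**Figure D5:**
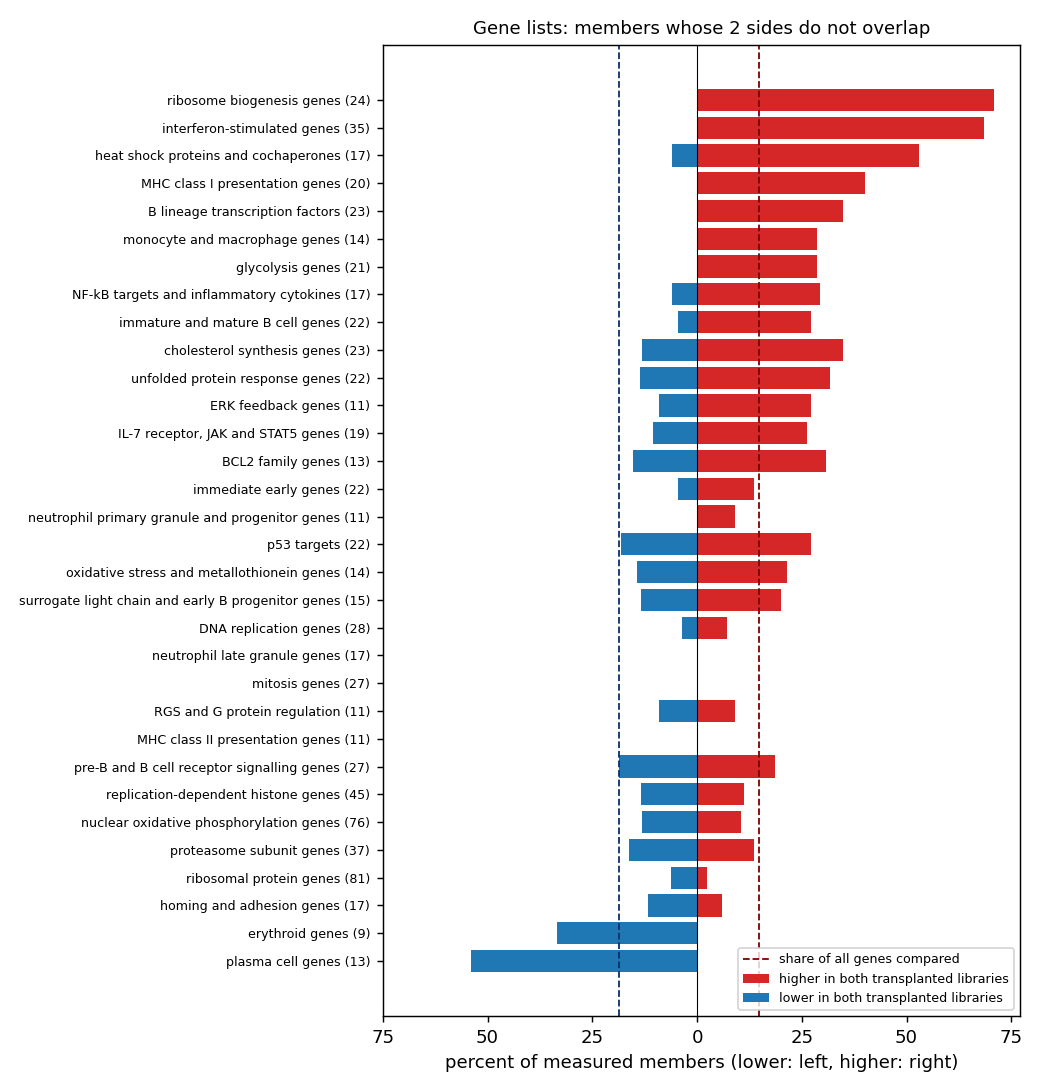
Percent of the measured members of each gene list (number in brackets, lists of 7 or more with at least 6 at 1 FPKM or more in all libraries) that were apart and higher (red, right) or apart and lower (blue, left) in both transplanted libraries, with dashed lines at the shares of all genes, 14.9% and 18.7%. Ribosome biogenesis and interferon-stimulated genes reach 70.8% and 68.6% on the right, and plasma cell genes 53.8% on the left.

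The libraries also differed in sex-linked transcripts. Xist, the RNA that coats the inactive X chromosome of female cells, was at 78.8 FPKM for wild type and 66.0 in transgenic at steady state, and at 34.4 for wild type and 19.4 in the labelled knockout after transplantation. Summed over the Y-linked genes Ddx3y, Kdm5d, Uty and Eif2s3y, the level was 84.4 and 80.6 FPKM at steady state and 137 and 138 after transplantation. All 4 libraries thus held both female and male transcripts. The ratio of the Y-linked sum to Xist was 1.07 and 1.22 at steady state and 3.98 and 7.09 after transplantation. Of the 344 X-linked genes compared 46 were apart and higher and 73 lower, beside 14.9% and 18.7% of all genes. The ratio moved with the side, and its part in the other differences was not tested.

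Markers of other blood cells were present in all 4 libraries, platelet genes near the detection limit and the neutrophil gene S100a8 at 261 to 720 FPKM. The platelet chemokine gene Pf4 was at 2.51 and 3.26 FPKM at steady state and 1.02 and 0.303 after transplantation, from 7, 9, 3 and 1 estimated reads. Of the 8 megakaryocyte and platelet genes measured, 6 were below 1 FPKM in both transplanted libraries and so entered only through the steady-state side, and their count is not given. The summed level of the list was 27.6 and 22.1 FPKM against 22.9 and 15.6. Of 9 erythroid genes 3 (33.3%, against 18.7% of all genes) were apart and lower, Car1, Tfrc and Fech, and without the transgenic library 8 were. Hba-a1, the alpha globin gene, was at 32.6 FPKM in steady-state wild type and at 3.89, 4.38 and 8.17 in transgenic, transplanted wild type and labelled knockout. Monocyte and macrophage genes gave 4 of 14 (28.6%, against 14.9% of all genes) apart and higher, led by C1qc at 1.45 and 2.76 against 6.70 and 2.86. Their summed level was 121 and 180 against 170 and 108. Without the labelled knockout 12 of these genes were higher and without the transgenic library 7, while without transplanted wild type 3 were higher and 4 lower. At 1 FPKM or more in all libraries 1 of 6 was higher. Of 12 eosinophil, basophil and mast cell genes 4 (33.3%) were apart and higher and 2 (16.7%) lower, with a median of -0.03. Over all genes the shares were 14.9% and 18.7%. Some members, such as Cpa3 and Ear2, entered only through the side where they were high. At 1 FPKM or more in all libraries 3 genes remained, 1 higher and 1 lower. The basophil protease gene Mcpt8 was at 1.30 and 0 FPKM against 3.27 and 4.2, from 7, 0, 19 and 27 estimated reads, and the eosinophil granule gene Prg3 at 17.5 and 31 against 16 and 12.9. Without steady-state wild type 7 members of the list were lower. Neutrophil granule genes did not separate by side, and their summed level over 17 late granule genes was 808 and 1911 at steady state and 1743 and 689 after transplantation. The part of these cells in the differences above was not tested.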

How the data were processed

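The labels' protocols name a miRNeasy kit for total RNA and, for the libraries, the TruSeq stranded mRNA kit, which selects poly(A) RNA. The authors deposited 1 value per gene symbol, taken here as FPKM. The submitters' processing notes name mm10, Cufflinks 2.2.1, TopHat2 2.0.13, SAMtools 0.1.19 and Bowtie2 2.2.3. Their roles, the annotation and any scaling between libraries are unstated there. Cufflinks divides reads between overlapping and near-identical genes, and FPKM is unstable for very short ones.

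From the FPKM values, log2(FPKM + 1) was compared among genes at 1 or more in any library with Python 3.11.15, pandas 2.3.3, NumPy 2.4.6 and SciPy 1.17.1. Depth was estimated from single-read steps, as the read total that gave the highest share of whole numbers among low values. Of 380 to 407 low values per library, 67.3% to 72.3% then came to a whole number of reads within 0.1. Chance gives 20% for a read total fixed in advance, which this was not. The libraries had no molecular identifiers, so intervals reflect counting error alone, and read estimates for genes with more than 1 transcript are rough. Coordinates came from GENCODE M21, whose annotation may differ from the authors'; 20873 symbols matched directly, 1910 by a synonym and 501 not. The 2-fold calls were run on simulated reads that held counting error only. The simulation had no variation between libraries beyond that, and it did not examine the list counts of genes apart.

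Named were Stap2, the 15 genes with the widest gap between the sides in each direction at 5 FPKM or more in both libraries of the higher side (immunoglobulin segments, numbered, small RNA and pseudogenes left out), and up to 4 members of each of 39 lists. Any further gene was picked with its values in view. The groups, members and lists were chosen with earlier results of these data known. Alternatives were other scalings, pseudocounts, filters and thresholds, each library left out, and each pair alone. A few genes of the lists are counted but not reported by name here.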

Additional observations from a re-analysis of the deposited data

Results flagged for a closer look

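The pairs of libraries pointed in opposite directions for some genes and lists, and none of these differences was tested. In 16 genes transplanted wild type was at least 2-fold above steady-state wild type while the labelled knockout was at least 2-fold below the transgenic library. Of the 16, 9 are small RNA genes, a histone gene or a pseudogene, whose FPKM values are uncertain. The others included the neutrophil genes S100a8, at 293 and 613 FPKM in steady-state and transplanted wild type and at 720 and 261 in transgenic and labelled knockout, and Lcn2, at 23.7 and 59.8 against 65.7 and 20.5. The reverse held for 2 genes, Hbb-b2 and the histone gene Hist1h3g.

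Neutrophil late granule genes had a median difference of 0.976 in the wild-type pair and -1.34 in the other, and neutrophil primary granule genes one of 1.18 and -0.473. Among the latter, Mpo, which encodes myeloperoxidase, was at 13.8 and 38.8 FPKM in the wild types and at 19.9 and 11.4 in transgenic and labelled knockout. Eosinophil, basophil and mast cell genes had medians of 0.413 and -0.870, but Ear1, Ear2, Ear6 and Epx entered only through the transgenic library. MHC class II presentation genes, which mature B cells and myeloid cells express, had medians of 0.569 and -0.425. Cd74, the invariant chain gene, was at 1411 and 2586 FPKM in the wild types and at 2107 and 1569 in transgenic and labelled knockout.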

How the results depend on the processing

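No paired analysis was possible because each group is 1 library and the labels pair none. The counts of at least 2-fold genes, 39 higher and 35 lower, were 100 and 92 with a pseudocount of 0.1, 7 and 9 with 5, 20 and 9 when all libraries had to reach 1 FPKM, 143 and 119 at 1.5-fold, 10 and 10 where the nearest libraries had to differ 2-fold, and 181 and 68 in the wild-type pair. The lower count was also 19 among genes at 5 or more in any library, 23 without short, small RNA, histone and numbered genes, and 132 in the other pair, an alternative chosen after seeing the data. Leaving out 1 library gave 45 to 103 higher and 47 to 87 lower. The genes apart, 1646 higher and 2071 lower, became 3150 to 3588 and 3425 to 4267 with 1 library left out, and 4968 and 5867 in the wild-type pair, where fewer libraries have to separate. Rescaling the libraries kept all 4 counts within 1.5 times. Of 2255 recomputed differences of 156 named genes, 258 moved and 0 changed sign as a call. For genes chosen as apart, leaving out a library, taking 1 pair or changing the pseudocount cannot reverse the sign. For these genes the 0 under those settings follows from the choice. Among the 39 list medians, p53 targets ranged from -0.02204 to 0.09329 with 1 library left out, and histone genes stood at 0.06027 in the other pair. At 1 or more in all and at 5 or more in any library the megakaryocyte list held 1 gene, Itgb3, at 0.09727. Stromal genes stood at 0.01072 with scaling by the median ratio and 0.01074 by the upper quartile, and ranged from -0.2217 to 0.02088 with 1 library left out. The cause was not tested. Depth limits genes near 1 FPKM, which rest on about 10 reads for a mid-length transcript.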

Other observations

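Of 21 glycolysis genes 6 (28.6%) were apart and higher in both transplanted libraries and 0 lower, against 14.9% and 18.7% of all genes. Eno1, the enolase gene, was at 24.5 FPKM for wild type and 24.7 in transgenic at steady state and at 31.0 in wild type and 42.7 in the labelled knockout after transplantation, and Ldha, which encodes lactate dehydrogenase A, at 69.7 and 84.4 against 96.8 and 100. Without the labelled knockout 13 were higher, and without transplanted wild type 7 were higher and 7 lower. Of 22 genes of the unfolded protein response 7 (31.8%) were apart and higher and 3 (13.6%) lower. The higher ones included the chaperone genes Calr, at 203 and 231 against 283 and 256, and Hspa5. Leaving out 1 library gave 6 to 13 higher, most without the labelled knockout, and 3 to 7 lower, most without transgenic or transplanted wild type.

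Among 13 measured BCL2 family genes 4 (30.8%) were apart and higher and 2 (15.4%) lower, against 14.9% and 18.7% of all genes. The counts were 7 and 6 without the labelled knockout and 5 and 4 without transgenic. Bid, a death-promoting member, was at 12.7 and 14.1 FPKM at steady state and at 23.7 and 21.5 after transplantation, with ratios of 1.86 (1.57 to 2.21) in the wild-type pair and 1.52 (1.29 to 1.80) in the other. Bbc3, which encodes PUMA, was at 2.47 and 2.33 against 5.10 and 3.71. Of 22 p53 targets 6 (27.3%) were higher and 4 (18.2%) lower, with a median of 0.06. Leaving out 1 library gave 9 to 10 higher and 5 to 7 lower. Plk3, a stress-responsive kinase gene, was at 1.26 and 1.15 against 2.51 and 2.93, while Trp53inp1 was at 207 and 196 against 168 and 170. In cholesterol synthesis 8 of 23 genes (34.8%) were higher and 3 (13%) lower. With 1 library left out 9 to 14 were higher, most without transgenic, and 3 to 8 lower, most without transplanted wild type.

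Some calls rest on 1 library. Ndufs5, a respiratory chain gene chosen after its values were seen, counted as 2-fold lower with 0.144 FPKM in wild type and 36.1 in transgenic at steady state and with 0.00249 and 0.0204 after transplantation.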
